A study of Mus musculus with 21 samples.

Results

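The regions described here are the distal c-MYC peaks found in fibroblasts both without and with HSF1. They are the peaks of the Hsf1 CKO list that overlap a peak of the Hsf1 WT list by at least 1 bp and whose edges lie more than 5000 bp from every gene start of the deposited gene table. They number 1503 of the 6386 CKO peaks, and the WT list holds 220037 peaks. The regions were chosen by these measured values, the called peaks of both lists and their distance from gene starts, so neither is a finding. The 5 regions nearest to the limit on its inside lay 5002 to 5027 bp from a start, with CKO heights of 8 to 14 coverage steps. The 5 nearest on its outside lay 4928 to 4992 bp away, with heights of 9 to 63 steps.

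The series studied immortalized mouse embryonic fibroblasts (MEFs), a cultured line of connective-tissue cells. For CUT&RUN, in which an antibody guides a nuclease to cut DNA beside a bound protein, CKO cells had Hsf1 deleted by 7 days with 1 mM 4-hydroxytamoxifen (4-OHT), as the labels give the dose. WT cells received ethanol for 7 days. Each genotype had 2 libraries, made from briefly crosslinked cells with an antibody labelled as recognising c-Myc and N-Myc, and 1 IgG library came from a 1:1 mix of both genotypes. The labels name neither the recombinase nor its driver. RNA was sequenced from MEFs that stably expressed LacZ or V5-tagged GCN5 and were transfected for 2 days with 10 nM siHsf1 or siControl, 3 libraries per group. Peaks therefore compare a deletion, and RNA a knockdown. Libraries with siMyc were not analysed here.

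c-MYC is a transcription factor that binds DNA as a partner of MAX, most strongly at the E-box CACGTG, and at high levels also occupies open promoters and enhancers that lack it. Sites far from annotated gene starts can be enhancers, promoters of transcripts that begin inside a gene, or regions of open chromatin. HSF1 drives chaperone genes under protein stress, and GCN5, encoded by Kat2a, is a histone acetyltransferase that c-MYC can recruit.

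Among the 10 tallest shared distal peaks, those at Tef, Wdr4, Larp1 and Dctd covered a promoter window of RefSeq, the reference collection of transcripts. Such a window runs from 250 bases before to 50 bases after a transcript start that the gene table does not use. The 4 windows are shown with that of Rnf44, the next tallest peak whose window held CACGTG, added after the values were seen. They are from RefSeq on build GRCm38.p6 and read 5′ to 3′ along the gene's strand. Capitals mark CACGTG in Tef and Rnf44, and the general E-box CANNTG in Wdr4 and Dctd. The positions are chr15:81811164-81811463 (+) for Tef, chr17:31512438-31512737 (-) for Wdr4, chr11:58008814-58009113 (+) for Larp1, chr8:48109708-48110007 (+) for Dctd and chr13:54687759-54688058 (-) for Rnf44.
Tef: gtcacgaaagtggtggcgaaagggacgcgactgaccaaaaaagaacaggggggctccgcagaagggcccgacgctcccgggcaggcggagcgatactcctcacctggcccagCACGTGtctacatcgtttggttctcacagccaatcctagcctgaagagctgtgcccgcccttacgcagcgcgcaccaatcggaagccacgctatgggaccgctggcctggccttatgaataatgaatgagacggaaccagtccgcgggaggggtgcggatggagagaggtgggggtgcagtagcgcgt
Wdr4: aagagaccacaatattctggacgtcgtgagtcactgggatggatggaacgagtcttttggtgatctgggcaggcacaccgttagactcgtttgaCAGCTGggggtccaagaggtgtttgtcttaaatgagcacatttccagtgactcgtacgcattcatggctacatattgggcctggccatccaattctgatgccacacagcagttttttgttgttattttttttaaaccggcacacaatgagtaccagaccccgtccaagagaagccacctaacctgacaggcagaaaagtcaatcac
Larp1: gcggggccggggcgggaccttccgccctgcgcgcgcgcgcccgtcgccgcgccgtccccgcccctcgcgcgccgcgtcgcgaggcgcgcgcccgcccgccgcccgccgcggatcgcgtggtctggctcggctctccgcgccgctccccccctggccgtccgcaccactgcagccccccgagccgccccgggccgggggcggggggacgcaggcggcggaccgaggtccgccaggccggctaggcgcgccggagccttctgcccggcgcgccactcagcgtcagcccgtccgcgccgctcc
Dctd: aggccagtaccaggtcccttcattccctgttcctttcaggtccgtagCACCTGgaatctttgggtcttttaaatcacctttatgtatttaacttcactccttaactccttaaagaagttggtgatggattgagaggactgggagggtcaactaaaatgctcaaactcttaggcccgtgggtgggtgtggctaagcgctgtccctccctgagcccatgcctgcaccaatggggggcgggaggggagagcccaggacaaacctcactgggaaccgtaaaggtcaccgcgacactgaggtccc
Rnf44: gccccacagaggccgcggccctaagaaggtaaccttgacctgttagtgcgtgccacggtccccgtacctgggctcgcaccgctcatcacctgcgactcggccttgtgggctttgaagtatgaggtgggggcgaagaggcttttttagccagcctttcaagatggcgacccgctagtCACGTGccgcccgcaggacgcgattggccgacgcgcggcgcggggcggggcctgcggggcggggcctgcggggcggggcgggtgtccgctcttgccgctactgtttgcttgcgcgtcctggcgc

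The CACGTG of Tef began at base 113 of its window and that of Rnf44 at base 177, counted from 1 at the 5′ end. The Larp1 window held no CANNTG and was 85.3% G or C, with 61 CG pairs, against 62% and 25 pairs in Tef and 53.3% and 7 pairs in Dctd. The 5 windows thus did not share an E-box, and they differed widely in base composition.

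Over all 1503 regions, the CKO peak had a median width of 1673 bp and a range of 200 to 5736 bp. The median width of their tallest WT partners was 3907 bp. Height is the maximal coverage within a peak, as the authors gave it, and its values were whole multiples of 0.000361 in the CKO list and of 0.000684 in the WT list, to within 0.000154 of a step. A step therefore stands for 1.9 times more coverage in the WT list, and the labels do not say how the coverage was scaled. The regions had a median CKO height of 0.00325, which is 9 steps, and a range of 4 to 66 steps. Their WT partners had a median of 0.00684, which is 10 steps. Shared peaks within 5000 bp of a gene start had a median of 11 steps in CKO cells and 12 in WT cells, so the distal regions were lower in each genotype.

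On the deposited scale the CKO peak was lower than its WT partner in 1472 regions and higher in 31, with a median ratio of CKO to WT height of 0.461 (binomial 95% interval of the median over regions 0.452 to 0.468). The shared peaks near gene starts had a median ratio of 0.527. The WT maximum lay inside the CKO peak in 71.5% of the distal regions and in 85.9% of the shared peaks near starts. Among peaks that held it, the median ratios were 0.474 and 0.527. Counted in steps, the median ratio of all distal regions was 0.875, against 1 for all shared peaks near starts. In steps, 479 regions were higher in CKO cells, 129 were equal and 895 were lower. The direction was the same on both scales for 926 regions, 895 of them lower in CKO cells and 31 higher. The 448 others that were higher in steps were lower on the deposited scale, as were the 129 that were equal. The 2 scales differ by 1 constant, so the order of the distal peaks and those near starts is the same on both by construction. Each genotype has a single peak list, so none of these values has a replicate error, and the interval covers the spread over regions alone. A total of 152 regions shared a tallest WT partner with another region, up to 5 in 1 WT peak, and these ratios are not independent of each other.

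**Figure D1:**
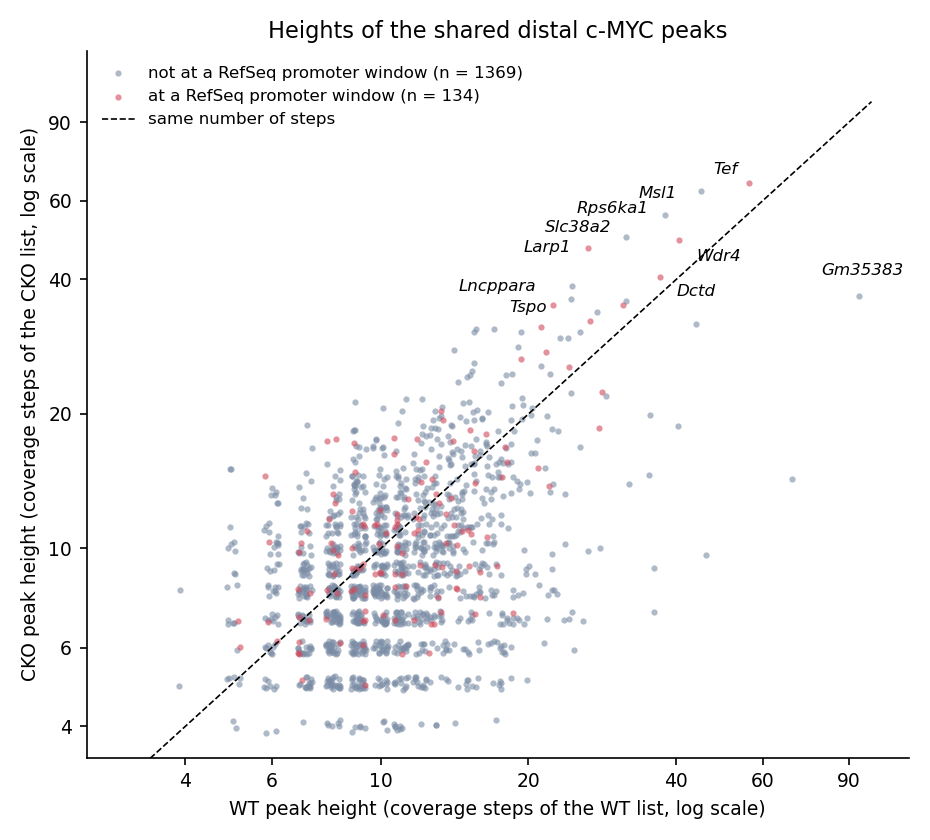
Height of each of the 1503 shared distal c-MYC peaks in CKO cells (vertical) against its tallest WT partner (horizontal), in coverage steps of each list on log scales with slight random jitter; red points overlap a RefSeq promoter window and the 10 tallest carry the name of the nearest gene. Of the 10 tallest CKO peaks, 9 lie above the line of equal steps, and the peak named Gm35383 lies below it with 38 steps in CKO and 94 in WT; on the deposited scale all 10, chosen by CKO height, were lower in CKO (ratios 0.213 to 0.917).

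The tallest region was in Tef (chr15:81809222-81812436, GRCm38), which encodes a PAR bZIP transcription factor of the circadian output pathway. It reached 66 steps in CKO cells and 58 in WT cells, and it lay 6549 bp from the gene's table start. The second stood between genes before Msl1, a subunit of a histone H4 acetyltransferase complex (chr11:98788539-98790315), with 61 steps in CKO and 45 in WT. The third lay 21983 bp before Rps6ka1, which encodes the growth-factor-activated kinase RSK1 (chr4:133909780-133911734), with 54 steps in CKO and 39 in WT. The fourth lay 9210 bp from the start of Slc38a2, the amino acid transporter SNAT2 (chr15:96708934-96711454), with 50 steps in CKO and 32 in WT. All 4 had more steps in CKO cells than in WT cells, but on the deposited scale all 4 were lower in CKO cells, with ratios of 0.599, 0.714, 0.729 and 0.823. Their choice by CKO height favours CKO in either comparison. The tallest shared peak near a gene start had 96 CKO steps.

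The next 3 were all inside genes and at RefSeq promoter windows. Wdr4, a subunit of the tRNA m7G methyltransferase, held a peak of 49 CKO and 41 WT steps (chr17:31511120-31512865). Larp1, which binds the caps of ribosomal protein mRNAs, held 1 of 47 CKO and 27 WT steps (chr11:58008054-58009203). Dctd, deoxycytidylate deaminase, held 1 of 41 CKO and 37 WT steps (chr8:48108947-48111075). The last 3 of the 10 were a peak 31525 bp from the lncRNA gene Lncppara (39 CKO and 24 WT steps), a peak within Flt1 whose nearest start is that of the lncRNA gene Gm35383 (38 CKO and 94 WT steps), and a peak over the adjoining 3′ ends of Tspo and Ttll12 (36 CKO and 24 WT steps). The Flt1 peak was 200 bp wide, the narrowest of all 1503.

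Among regions taller than the median, the highest CKO to WT height ratios were 1.58 in E2f2, which encodes an activating E2F factor of the cell cycle, and 1.58 beside Elovl5, a fatty acid elongase. Both had 15 CKO and 5 WT steps. They were followed by a region in Cacna1i with 19 CKO and 7 WT steps (ratio 1.43), another in Aptx, a DNA repair gene, with 15 CKO and 6 WT steps (1.32), and another in Tmeff2 with 22 CKO and 9 WT steps (1.29). The Aptx region (chr4:40702871-40704369) overlapped its WT partner (chr4:40701605-40703273) in part alone. A choice of tall CKO peaks favours high ratios, and the lowest WT partner of any region had 4 WT steps. At the other end, a region of 831 bp in Sfi1 had 14 CKO and 70 WT steps (ratio 0.105). A second region before Msl1 had a ratio of 0.117 and a second region in Larp1 of 0.195, and each lay in the same WT peak as the taller region named above, so its WT height was taken from that taller part. The region in Slc1a4, a neutral amino acid transporter, had a ratio of 0.195 and that in Flt1 0.213. The lowest ratios in this group came from WT peaks of 27 steps or more. This follows from the choice, since a low ratio in a region taller than the median requires a tall WT peak.

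The shared distal regions lay mostly inside genes. Of the 1503, 929 (61.8%, Wilson 95% interval 59.3 to 64.2) overlapped a gene body and 574 lay between genes. Gene bodies made up 44.1% of all sequence more than 5000 bp from a gene start. That is a share of bases, whereas a region was counted at any overlap. Of the 176291 distal peaks of the WT list alone, 49.3% overlapped a gene body. Of the 207 distal peaks of the CKO list alone it was 56.5% (49.7 to 63.1), an interval that overlaps that of the regions. Among the 1369 regions away from RefSeq promoter windows the share was 58.5%. A protein-coding gene held 842 of the regions. Distances to the nearest start had a median of 18303 bp and reached 646687 bp. Height changed little with distance: the median was 9 steps at 5 to 10 kb, 9 at 10 to 20 kb, 9 at 20 to 50 kb, 8 at 50 to 100 kb and 7 beyond 100 kb.

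The peaks of the WT list covered 18.2% of that distal sequence. Of all 1710 distal CKO peaks, 1503 (87.9%, 86.3 to 89.4) overlapped a WT peak, against 95.4% of the 4649 CKO peaks near gene starts. Of the 177623 distal WT peaks, 1332 (0.75%) overlapped a CKO peak.

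A part of the regions sat on promoters of shorter or alternative transcripts. RefSeq windows were overlapped by 134 regions (8.92%, 7.58 to 10.5), against 9 of 207 distal peaks found in CKO cells alone (4.35%, 2.3 to 8.06) and 863 of the 176291 found in WT cells alone (0.49%). The peaks found in WT cells alone were lower, with a median of 6 WT steps, against 10 for the WT partners of the regions. The classes were not compared at equal height. The share was larger among taller regions. It was 3.46% of 318 regions of 4 to 6 CKO steps, 8.46% of 544 of 7 to 9, 10.4% of 444 of 10 to 14, 13.5% of 126 of 15 to 19 and 19.7% of 71 of 20 steps or more, with intervals that overlapped between neighbouring bins except the first 2. The 163 windows belonged to 136 genes, 127 of which were in the gene table, and in 125 of these the RefSeq start lay downstream of the table's start.

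**Figure D2:**
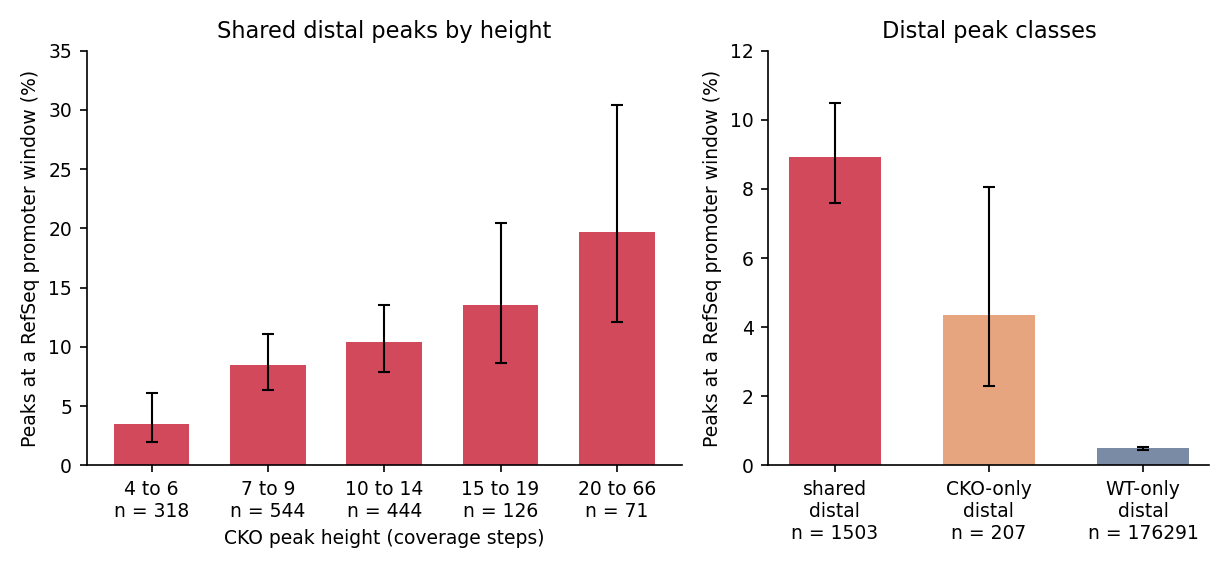
Share of c-MYC peaks that overlap a RefSeq promoter window, with Wilson 95% intervals: left, the shared distal peaks by CKO height; right, shared distal, CKO-only distal and WT-only distal peaks. The share was 3.46% in the lowest height bin and 19.7% in the highest, and 8.92% of all shared distal peaks against 0.49% of WT-only distal peaks. The WT-only distal peaks had a median of 6 WT steps, against 10 for the WT partners of the shared distal peaks.

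For 89 of the 127 genes, the CKO list had no peak within 5000 bp of the table's own start. In these the CKO peak was at the RefSeq start alone. In the 38 others both starts had a CKO peak, and the distal region was the taller in 17, equal in 3 and the lower in 18. The far longer WT list had a peak at the table's own start in 111 of the 127 genes. At Tef the table start had 12 CKO steps, against 66 at the internal promoter 8741 bp downstream. Wdr4 had 9 at its table start against 49, and Mthfd2, the mitochondrial folate enzyme, 11 against 26. Lmna, which encodes lamin A and C, had 31 at its table start, above the 20 of its tallest distal region. Larp1, Dctd, Dnmt1 (the maintenance DNA methyltransferase, 20 steps) and Mga (32 steps) had no CKO peak at the table start. The WT list had peaks of 10, 7 and 6 WT steps at the table starts of Larp1, Dctd and Mga, and none at that of Dnmt1. Mthfd2, Lmna, Dnmt1 and Mga were picked as tall examples after the values were seen.

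CACGTG was found in 11 of the 163 windows at distal regions (6.75%, 3.81 to 11.7). It was in 14.7% of the 4563 windows at shared peaks near gene starts and in 7.15% of all 32851 windows. The 11 genes include Tef, Rnf44, Hif1a, which encodes the hypoxia factor, Sgk1, a growth-factor-induced kinase, and Pfkfb3, a glycolytic regulator. CANNTG was in 62.6%, 59.4% and 72.3% of the same 3 sets, and every CACGTG is also a CANNTG. The AP-1 motif TGANTCA was in 9.82% of windows at distal regions, 4.03% of those at shared peaks near starts and 7.81% of all. The heat-shock core GAANNTTC was in 5.52%, 5.26% and 7.86% of these sets, and its other form TTCNNGAA in 4.29%, 6.64% and 8.52%. Each motif reads the same on both strands. These shares describe 300-base windows and 134 regions. Windows of transcripts that start close together overlap, as in Csnk1e, Nt5c2 and Dpy30. The windows are thus not independent, which the interval does not allow for. Counted by region, 11 of the 134 had CACGTG in an overlapped window. The sequence under the other 1369 regions was not analysed here.

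The regions were unevenly spread over chromosomes. Chromosomes 15, 11 and 8 held 255, 231 and 139 regions, together 625 (41.6%), or 1.81 per Mb, against 0.379 per Mb on the other chromosomes. Distal WT peaks were also denser there, at 124 against 58.2 per Mb. Shared peaks near gene starts were likewise most numerous on chromosomes 15, 11 and 8, with 9.09%, 12.8% and 8.19% of them, beside 17%, 15.4% and 9.25% of the regions. Per 100 distal WT peaks, chromosomes 11 and 15 had 1.93 and 1.67 regions. Chromosome 8 had 0.881, fewer than chromosomes 4, 7 and 19 (1.13, 1.15 and 1). Chromosomes 3 and 6 had 120 and 117 distal WT peaks per Mb but 0.777 and 0.607 regions per Mb. Median heights were alike, with 9 CKO and 11 WT steps on chromosomes 8, 11 and 15, and 9 CKO and 10 WT steps elsewhere.

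**Figure D3:**
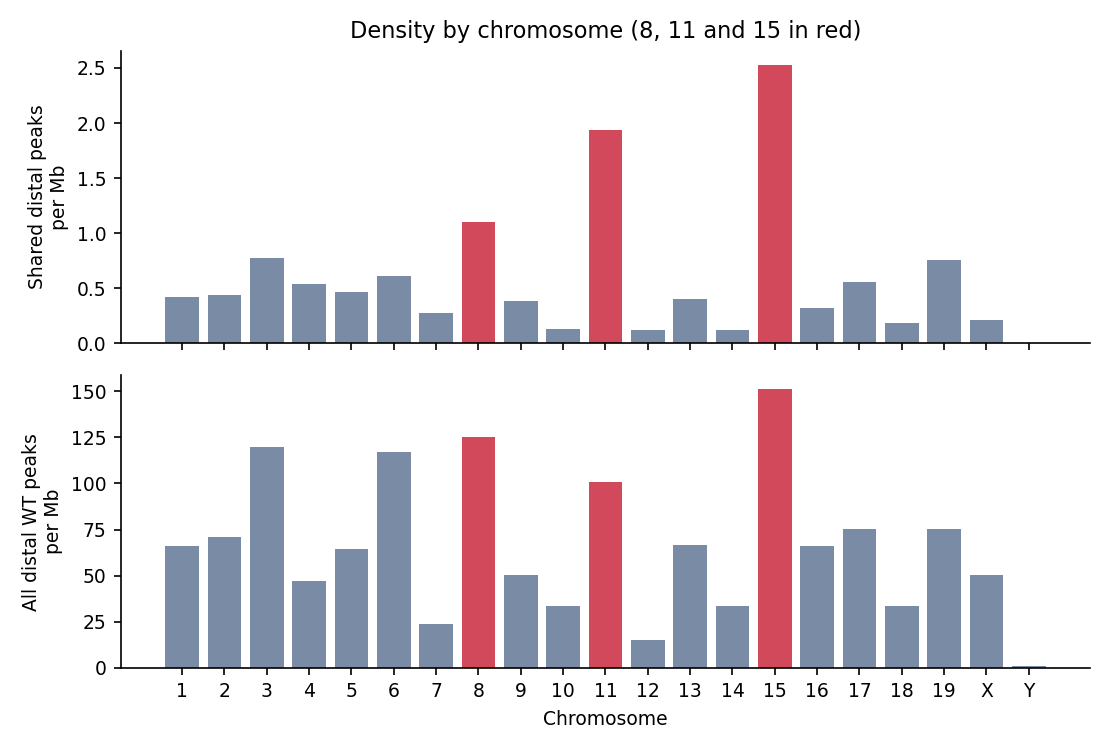
Density of the 1503 shared distal c-MYC peaks (top) and of all distal WT peaks (bottom) per Mb of each chromosome, with chromosomes 8, 11 and 15 in red. Chromosome 15 stands highest in both, at 2.53 shared distal peaks and 151 distal WT peaks per Mb, while chromosome 11 is second for shared distal peaks with 1.94 per Mb but not for WT peaks, with 101.

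Groups of regions within 20000 bp of each other were also present. Chained at that distance, 423 regions fell into 170 clusters of 2 or more, and 1080 stood alone. Of the clusters, 7 held at least 5 regions. The largest, of 7 regions over 53268 bp (chr15:85633917-85687184), lay between Wnt7b, a secreted Wnt ligand, and Lncppara, with CKO heights of 7 to 39 steps. A cluster of 6 regions lay beside Socs3, the feedback inhibitor of cytokine receptors (chr11:117931791-117965173), with heights of 6 to 21 steps, and another beside Atg7, an autophagy enzyme, with 6 to 9. Myh9, the heavy chain of non-muscle myosin IIA, held a cluster of 6 (5 to 13 steps), and 6 more lay beside the microRNA gene Mir29b-1, with a body overlap of the lncRNA gene Lncpint (6 to 15 steps). Sept9, a septin of the cytoskeleton, held 5 of 7 to 18 steps. The last, of 5 regions of 5 to 7 steps beside Obox2 and Obox3-ps6, all with a WT height of 18 steps, lay among near-identical Obox copies, where the placement of reads is uncertain.

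Myc itself had no shared distal region nearby. The nearest lay 275640 bp beyond its start, with 6 CKO and 12 WT steps, although the start had a peak in both lists.

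The genes around the regions were read from the RNA libraries of the knockdown experiment. The 1503 regions had 1230 different nearest genes by the distance to a start of any biotype, of which 672 were protein-coding, 400 lncRNA and 39 microRNA genes. A single region was nearest to 1038 of them, and Atg7 had the most, 8. Of the 672 protein-coding nearest genes, 480 (71.4%, 67.9 to 74.7) averaged at least 1 FPKM, fragments per kilobase of gene per megacount of library, in siControl LacZ cells. The share was 91.3% for protein-coding genes nearest to shared peaks at starts and 45.8% for all protein-coding genes. A CKO peak at the gene's own start was present for 269 of the 672 (40%), against 22.1% of all protein-coding genes.

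By the nearest protein-coding start, the regions had 1136 genes, whose level differed with height and distance. The median in siControl LacZ cells was 3.3 FPKM for regions of 4 to 6 CKO steps, 7.97 for 7 to 9, 7.83 for 10 to 14 and 10.9 for 15 steps or more. By distance to that start it was 10.8 FPKM at 5 to 10 kb, 9.26 at 10 to 50 kb and 3.44 beyond 50 kb. Of the genes with a RefSeq promoter at a region, 118 of 121 protein-coding ones had 1 FPKM or more (97.5%, 93 to 99.2). The intervals of the nearest genes, of the genes with a shared peak at their start (90.3 to 92.2) and of all genes (45.2 to 46.5) did not overlap.

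The labels were checked first. Hsf1 had 57.6, 55.4 and 47.8 CPM (counts per megacount after TMM scaling) in the siHsf1 LacZ libraries, against 128, 128 and 134 with siControl (edgeR with TMM, -1.28 ± 0.08, adjusted p 2.6e-12). In the GCN5 line it had 67.9, 74.5 and 73 CPM with siHsf1, against 137, 121 and 138 with siControl (-0.88 ± 0.08, adjusted p 8.2e-07). The siHsf1 libraries were lower in both lines with no overlap. Kat2a had 117 to 130 CPM in siHsf1 LacZ, against 215 to 220 in siControl LacZ, while the GCN5 groups had 244 to 252 CPM with siHsf1 and 233 to 262 with siControl. Myc itself had 99.4, 89.4 and 88.1 CPM in siHsf1 LacZ, against 130, 142 and 147 in siControl LacZ (-0.60 ± 0.08, adjusted p 7.2e-07 by edgeR with TMM). By spike-in scaling Myc had an adjusted p of 0.049, which was 0.16 to 0.28 without siControl replicate 1 or 3 or siHsf1 replicate 2 or 3. Fibroblast markers were present, 9 of 10 at 1 FPKM or more in each group, with summed levels of 2622 to 2868 FPKM in siHsf1 LacZ, against 2122 to 2182 in siControl LacZ. Thy1 was below 1 FPKM in all groups. Among 6 haematopoietic, 6 epithelial and 4 endothelial markers, Cd68 and Krt18 alone reached 1 FPKM. The haematopoietic sum was 8.91 to 10.9 FPKM in siHsf1 LacZ, against 5.03 to 6.21 in siControl LacZ, and its part in the results was not tested. Ptprc, Adgre1, Itgam and Lyz2 were not detected in siHsf1 LacZ, nor were Ptprc, Adgre1 and Itgam in siControl LacZ. Fewer cells of a type and less RNA per cell cannot be told apart in these bulk libraries. The GCN5 libraries held 3.69 to 4.27 megacounts in genes and the LacZ libraries 7.22 to 8.16, so line and depth cannot be told apart. Where no read was counted, the limit was 0.368 to 0.812 CPM, by counting error alone. The labels do not say whether the 3 libraries of a group came from separate cultures, and p-values measure the spread between them.

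After Hsf1 knockdown in the LacZ line, the picture depended on the scaling: few nearest genes were called with spike-in scaling, at shares near those of all genes, while with TMM more were called higher than lower. With the spike-in scaling that the series names, edgeR called 3 of the 557 testable nearest genes higher in siHsf1 and 27 lower at an adjusted p under 0.05, which is 0.539% and 4.85%. Over all 12187 tested genes these calls made up 0.993% and 6.03%. The other nearest genes were too low in counts to be tested. With TMM scaling, which sets the bulk of genes to no change, 187 (33.6%) were higher and 86 (15.4%) lower, against 21.1% and 19.5% of all tested genes. The median log2 fold change of the nearest genes was -0.27 by spike-in scaling and 0.11 by TMM, beside -0.35 and 0.02 for all tested genes on placed chromosomes. The scalings differ by nearly the same amount for all genes, so the sign of a median is set by the scaling, and its order relative to all genes is a single observation. The 3 higher and 27 lower calls of the spike-in fit were also called by TMM.

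Host genes are those whose bodies hold a region. With TMM, 215 of 578 (37.2%) were called higher and 72 (12.5%) lower, while spike-in scaling called 2 higher and 12 lower. Genes nearest to shared peaks at starts had 713 of 3461 (20.6%) higher and 972 (28.1%) lower by TMM. Genes with a RefSeq promoter at a region had 36 of 119 (30.3%) higher and 29 (24.4%) lower. The difference between these groups of genes was not tested. The spike-in counts rested on single libraries: the lower calls numbered 9, 54 and 15 without siControl LacZ replicates 1, 2 and 3, and 117, 10 and 9 without siHsf1 LacZ replicates 1, 2 and 3, and the higher calls 0 to 4. By TMM, leaving out a library gave 162 to 192 higher and 73 to 93 lower calls.

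**Figure D4:**
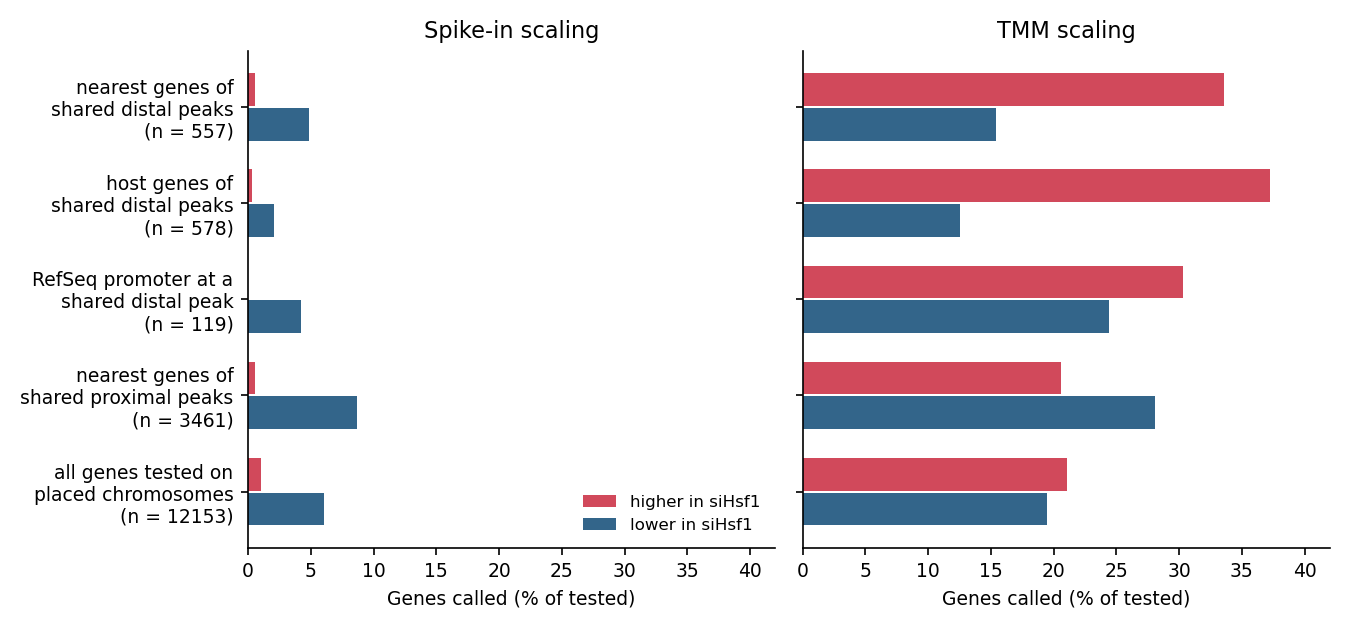
Percent of tested genes called higher (red) or lower (blue) in siHsf1 than in siControl LacZ cells by edgeR at an adjusted p under 0.05, for gene groups at c-MYC peaks and all tested genes on placed chromosomes, with spike-in scaling (left) and TMM scaling (right). With TMM, 33.6% of the nearest genes of shared distal peaks were called higher and 15.4% lower, against 20.6% and 28.1% for the nearest genes of shared peaks at starts.

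The nearest genes with the greatest increases by TMM were Tor3a, Gm34648, Lgals3bp, Apol9b, Adar and Cdkn2b. Tor3a, a torsin ATPase, had 81.1, 99.6 and 87.6 CPM in siHsf1 LacZ, against 32.5, 27.8 and 26.8 in siControl LacZ, a log2 fold change of 1.63 ± 0.10 (SE; edgeR adjusted p 8.1e-12). Lgals3bp, a secreted galectin-binding glycoprotein, had 513, 524 and 506 CPM in siHsf1, against 186, 185 and 204 in siControl (1.42 ± 0.06, adjusted p 2e-15). Apol9b, an apolipoprotein L with a near-identical copy that could share its reads, had 360, 438 and 366 CPM in siHsf1, against 145, 156 and 146 in siControl (1.38 ± 0.07, adjusted p 1.7e-13). For these 3 genes the groups did not overlap, and they are the 3 called higher by spike-in scaling too, with log2 fold changes of 1.20, 1.05 and 0.99. Those spike-in calls rested on single libraries. Without siControl replicate 3 or siHsf1 replicate 3, the edgeR adjusted p was 0.088 and 0.065 for Tor3a, 0.11 and 0.13 for Lgals3bp and 0.17 and 0.16 for Apol9b, and without siControl replicate 2 it was 0.074 for Lgals3bp and 0.08 for Apol9b.

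Adar, the editor of double-stranded RNA, had 185, 203 and 180 CPM in siHsf1 LacZ, against 87.2, 75.7 and 87.4 in siControl LacZ (edgeR with TMM, 1.18 ± 0.07, adjusted p 6e-12). Cdkn2b, the CDK inhibitor p15, had 64, 74.9 and 64.6 CPM in siHsf1, against 29.7, 35.3 and 28.7 in siControl (1.12 ± 0.10, adjusted p 2.4e-09). The lncRNA gene Gm34648, which overlaps Igfbp7, had 8.94 to 10.7 CPM in siHsf1, against 2.52 to 4.33 in siControl (1.44 ± 0.24, adjusted p 3e-05). Again no group overlapped, but spike-in scaling called none of the 3, with adjusted p of 0.12 for Adar, 0.14 for Cdkn2b and 0.082 for Gm34648. The regions nearest to the 6 genes had 5 to 8 CKO steps. That of Adar lay within the gene, 15101 bp from its start, and that of Cdkn2b 116250 bp away.

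The greatest decreases were those of Mir6516, Gm8210, Eda2r, 2010204K13Rik, Podxl and Nedd4, all called by both scalings. Nedd4, a ubiquitin ligase, had 595, 513 and 580 CPM in siHsf1 LacZ, against 1374, 1193 and 1430 in siControl LacZ (edgeR with TMM, -1.24 ± 0.07, adjusted p 3.5e-13). The nearer of its regions lay 6869 bp before the gene, with 15 CKO and 9 WT steps. Eda2r, a receptor of the TNF receptor family, had 5.51, 3.41 and 4.39 CPM in siHsf1, against 18.4, 18.6 and 18.1 in siControl (-2.05 ± 0.16, adjusted p 3.5e-10). Podxl, a sialomucin of the cell surface, had 13.2, 10.8 and 12.3 CPM in siHsf1, against 30.7, 25.7 and 30.2 in siControl (-1.25 ± 0.12, adjusted p 1.6e-08), and its region of 10 CKO and 8 WT steps lay just past its 3′ end. The 2 groups were apart in each of these genes.

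The other 3 were low in counts. The lncRNA 2010204K13Rik had 2.07 to 2.35 CPM in siHsf1 LacZ, against 6.45 to 9.09 in siControl LacZ. Gm8210, which lies within the span of Fhl2, had 0.826 to 2.07 CPM in siHsf1, against 5.22 to 8.33 in siControl. Mir6516, whose gene overlaps the lncRNA gene Snhg20, had 0.122 to 1.06 CPM in siHsf1, against 3.34 to 5.17 in siControl, and its reads cannot be told apart from those of Snhg20. The lowest of these values, 0.122 CPM, is under the 0.372 CPM that a count of 0 allows in that library.

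**Figure D5:**
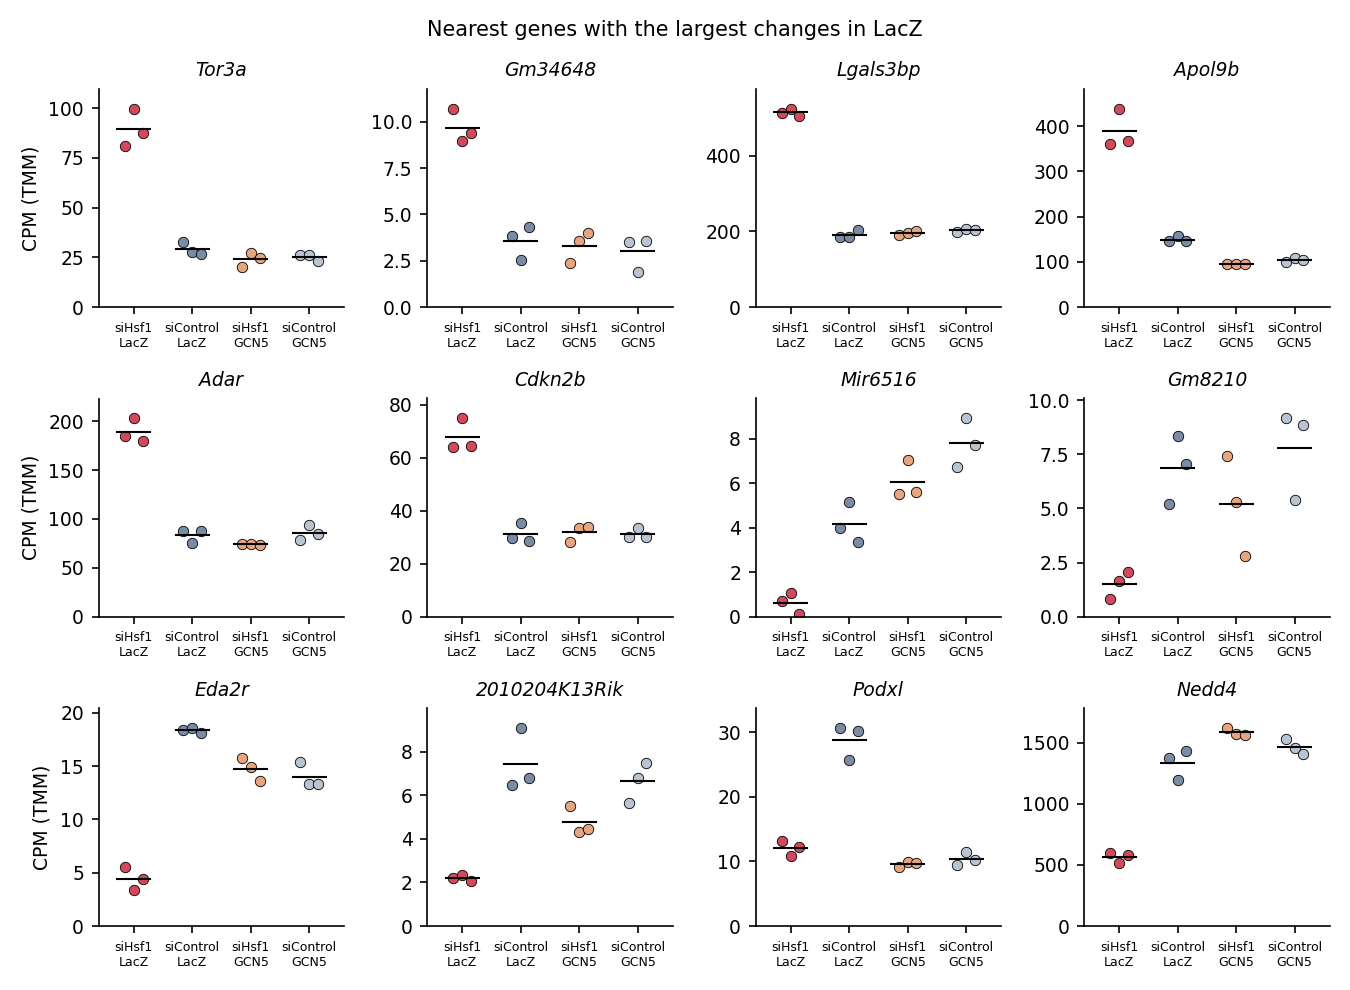
Level of the 12 nearest genes with the greatest changes in LacZ cells, as CPM after TMM scaling in each of the 3 libraries of siHsf1 LacZ, siControl LacZ, siHsf1 GCN5 and siControl GCN5 (points) with group means (lines). In LacZ cells the siHsf1 points lie apart from the siControl points in each of the 12 genes, for example at 513, 524 and 506 CPM for Lgals3bp, while in GCN5 cells none of the 12 was called.

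Among the nearest and host genes of the 10 tallest regions, Rps6ka1, Dctd, Wdr4, Larp1 and Ttll12 were called lower by TMM and Tspo higher. Of all tested genes, TMM called 19.5% lower and 21.1% higher. Rps6ka1 had 26.3, 25.9 and 23.9 CPM in siHsf1 LacZ, against 44.5, 46.1 and 47.2 in siControl LacZ (edgeR with TMM, -0.86 ± 0.09, adjusted p 7.1e-08), and was also called by spike-in scaling (adjusted p 0.0073). Dctd had 19.6, 19.4 and 17.4 CPM in siHsf1, against 40.1, 34.6 and 38.5 in siControl (-1.0 ± 0.10, adjusted p 3.6e-08), likewise called by spike-in scaling (0.0018). Wdr4 fell to 28 to 37.2 CPM in siHsf1, against 44.7 to 51.8 in siControl (-0.49 ± 0.11, adjusted p 0.00064), and Larp1 to 285 to 307 in siHsf1, against 324 to 374 in siControl (-0.26 ± 0.07, adjusted p 0.0038), by TMM alone. In each of these 4 genes the siHsf1 libraries were all lower. The spike-in call of Rps6ka1 was lost without siControl replicate 1 (adjusted p 0.077 by edgeR) and without siHsf1 replicate 2 (0.056) or 3 (0.12), and that of Dctd without siHsf1 replicate 3 (0.059).

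Tspo, a protein of the outer mitochondrial membrane, had 254, 271 and 263 CPM in siHsf1 LacZ, against 209, 263 and 197 in siControl LacZ, overlapping groups with an edgeR TMM adjusted p of 0.02. Without siControl replicate 1 or 3 or siHsf1 replicate 2 or 3 that p was 0.052 to 0.12. Its neighbour Ttll12 had 164 to 179 CPM in siHsf1, against 235 to 248 in siControl (-0.48 ± 0.06, adjusted p 5.6e-07 by TMM). Tef had 86.5 to 91.2 CPM in siHsf1, against 78.8 to 83.5 in siControl (0.14 ± 0.07, adjusted p 0.099), Msl1 117 to 122 in siHsf1 against 108 to 117 in siControl, and Slc38a2 378 to 438 in siHsf1 against 418 to 428 in siControl, none of them called. The transcripts from the table start and from the internal promoter were not counted apart, so a change of either cannot be read from these values. Lncppara was below 2 CPM in the LacZ libraries and was not called, and Gm35383 was not tested, with no count in 11 of the 12 libraries.

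Of the genes with 5 or more nearest regions, picked for that number, Csf1, Myh9, Socs3 and Tns3 were called higher by TMM, as were 21.1% of all tested genes. Csf1, the macrophage colony-stimulating factor, had 1053, 1138 and 1061 CPM in siHsf1 LacZ, against 757, 670 and 799 in siControl LacZ (edgeR with TMM, 0.55 ± 0.06, adjusted p 1.4e-07). Myh9 had 2630, 2592 and 2497 CPM in siHsf1, against 1832, 1567 and 1917 in siControl (0.54 ± 0.06, adjusted p 1e-07). Socs3 had 57 to 68 CPM in siHsf1, against 43.9 to 45.3 in siControl (0.50 ± 0.11, adjusted p 0.00043), and Tns3, a tensin of focal adhesions, 432 to 457 in siHsf1, against 224 to 300 in siControl (0.73 ± 0.08, adjusted p 8.2e-07). The groups did not overlap in these 4 genes. Atg7, with 8 regions, had 25.8 to 30.1 CPM in siHsf1, against 25.1 to 30.9 in siControl, and was not called. By spike-in scaling none of the 5 was called, at log2 fold changes of -0.32 to 0.34.

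Gene lists written from general knowledge were set beside the regions. By the rule of distance, a gene of 5000 bp or less cannot hold a region, which favours long genes. Gene length was not taken into account in the counts of listed genes. Over the tested genes, 6.78% were nearest to or held a region. No gene of 27 heat-shock chaperones did, and in the MYC network list 2 of 30 did. These were Mnt and Mga, which both encode partners of MAX that oppose MYC. Their regions had 19 CKO and 22 WT steps in Mnt and 32 CKO and 26 WT steps in Mga. Mnt was higher in siHsf1 LacZ by TMM (log2 fold change 0.55 ± 0.11, edgeR adjusted p 0.00017) and Mga was not called (0.02 ± 0.10), and spike-in scaling called neither. By TMM 19 of the 28 tested genes of that list were lower and 1 higher, and 19 of 25 chaperones lower and 0 higher. Among all tested genes TMM called 19.5% lower and 21.1% higher. Neither Mnt nor Mga was among the 19 that fell.

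Of 25 actin, adhesion and cytoskeleton genes, 8 were nearest to or held a region, 5 as a nearest gene and 7 as a host. They included Actn4, an actin cross-linker, Tpm1, tropomyosin, Itga5, the fibronectin receptor subunit, Cald1, caldesmon, Myh9, Pxn, paxillin, and Palld, palladin. All 8 were called higher in siHsf1 LacZ by TMM, with log2 fold changes of 0.17 to 0.54, and none by spike-in scaling, at -0.21 to 0.15. By TMM, Actn4 was not called without siControl replicate 2 (edgeR adjusted p 0.057). The whole list had 20 of 23 tested genes higher by TMM and 1 lower, with a median log2 fold change of 0.42, against 0.32 for the 8. Growth factor and TGF-beta genes had regions in 8 of 29, namely Smad3, Hbegf, Met, Wwtr1, Ankrd1, Runx1, Runx2 and Twist2, of which 6 were higher by TMM and none by spike-in scaling. The whole list had 17 of 28 tested genes higher by TMM and none by spike-in scaling, and 21.1% of all tested genes were higher by TMM. Met was not called without siControl replicate 2 (edgeR adjusted p 0.052) or siHsf1 replicate 1 (0.069). Ankrd1, a target of YAP, had 358 FPKM in siHsf1 LacZ, against 224 in siControl LacZ (TMM log2 fold change 0.69 ± 0.06, edgeR adjusted p 8.7e-10).

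Extracellular matrix genes had regions in 3 of 35 (Fbln2, Col4a2 and Fbn1), immediate early genes in 2 of 23 (Nr4a1 and Ier5) and interferon response genes in 1 of 20. That gene, Irf1, an interferon-induced transcription factor, had 2 regions of 11 and 18 CKO steps at 24311 to 32644 bp from its start. It was higher by TMM (0.47 ± 0.07, edgeR adjusted p 5.7e-06), while 19 of 19 tested genes of the list were higher by TMM with a median of 2.09 and 15 by spike-in scaling. Irf1 was not among these 15 (log2 fold change 0.11, edgeR adjusted p 0.86). The count of 1 of 20 covers the listed genes alone. Tor3a, Lgals3bp, Apol9b and Adar, named above for their increases, were not on the interferon response list. That list is not a full set of such genes, and whether these genes respond to interferon was not tested. Nr4a1, a nuclear receptor of the early response, had 2 regions of 10 and 12 CKO steps and had a log2 fold change of 0.62 ± 0.13 by TMM (edgeR adjusted p 0.0005), but was not called by spike-in scaling (0.23, adjusted p 0.69). The whole immediate early list had 13 of 22 tested genes higher by TMM and 1 by spike-in scaling, beside 21.1% and 0.993% of all tested genes.

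In the GCN5 line, no nearest gene was called in either direction by spike-in scaling, by TMM or by DESeq2. Over all tested genes, 0.0328% were called higher and 0.00821% lower by spike-in scaling, and 0.0656% and 0.0985% by TMM. At an unadjusted p under 0.05 there were 1 nearest gene by spike-in scaling, 51 by TMM and 39 by DESeq2. The difference between the lines, the siHsf1 effect in GCN5 minus that in LacZ, was tested by an interaction term of edgeR. Of the 12 genes named for the greatest changes in LacZ, it was called positive in 3 and negative in 0 with spike-in scaling, and positive in 6 and negative in 6 with TMM. Over all tested genes, 0.172% were positive and 0.222% negative with spike-in scaling, and 11% in each direction with TMM. The 12 were chosen for their change in LacZ by TMM, which favours such a difference. Among host genes TMM called 2, chosen here after their values were seen: Ccnd3, cyclin D3, at -0.89 ± 0.08 (edgeR adjusted p 6.8e-07) and Flt1, a VEGF receptor, at 1.05 ± 0.21 (adjusted p 0.038). Flt1 had 11.5, 10.4 and 11.5 CPM in siHsf1 GCN5, against 6.2, 5.96 and 3.87 in siControl GCN5, and 11.6, 8.12 and 10.4 in siHsf1 LacZ, against 9.75, 9.47 and 9.28 in siControl LacZ. Its 2 groups were apart in the GCN5 line and overlapped in the LacZ line. The call of Flt1 was lost when any of the 6 GCN5 libraries was left out, with an edgeR adjusted p of 0.076 to 0.35, the highest of these without siControl GCN5 replicate 3.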

How the data were processed

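c-MYC CUT&RUN peaks of Hsf1 CKO and WT MEFs and RNA of siHsf1 and siControl MEFs of the LacZ and GCN5 lines were used. Bowtie2, HISAT2, SEACR and DESeq2 with GRCm38 or mm10 are named in the submitters' processing notes, without versions. The peak lists, 1 per genotype and named as SEACR stringent calls against IgG, hold a score per peak, the coverage summed over it, and the maximal coverage signal in it, both as the authors deposited them. No label says whether libraries were pooled or how coverage was scaled. The authors deposited raw gene counts of 41608 genes and 92 ERCC transcripts, and FPKM for the same libraries.

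Gene starts were the ends of the deposited gene positions on their strand. Peaks on contigs without placed genes, 27 CKO and 495 WT, were left out. The nearest gene has the smallest distance from a peak edge to a start. Intervals of shares are Wilson 95% intervals and cover counting error alone. Promoter windows, 300 bases each, came from the RefSeq table of GRCm38.p6, with 32851 windows of 27025 genes, and E-boxes and other motifs were searched in these windows. No genome was used, so the planned motif search under peaks was not made.

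Counts were tested with edgeR 4.0.16 in R 4.3.3, by robust quasi-likelihood tests on 4 group means, two-sided, with Benjamini-Hochberg adjustment over the 12187 genes that filterByExpr kept at a minimum count of 10. Libraries were scaled by the 23 ERCC transcripts of subgroup B (named from general knowledge of the mixes, not from the files), whose sums were 7460 to 29584 counts; TMM results stand beside, since the biological coefficient of variation was 0.274 with the first and 0.089 with the second. The fits were tested on simulated data. FPKM group means describe levels. DESeq2 1.42.0 was an alternative.

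The regions, gene lists and rules were chosen with earlier results of these data known. Named peaks are the 10 tallest and the 5 with the highest and lowest height ratios among regions taller than the median. Named genes are their nearest and host genes, the 6 greatest increases and decreases by TMM among called nearest genes whose mean log2 CPM was 2 or more, and list genes. Genes with 5 or more regions were added after their values were seen. A gene of the lists is counted but not reported here by itself.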

Additional observations from a re-analysis of the deposited data

Results flagged for a closer look

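The siHsf1 effect was compared between the lines by the interaction term of edgeR, that is, the effect in GCN5 minus the effect in LacZ, and the count depended on the scaling. Of the 12 nearest genes named for the greatest changes in LacZ, 3 passed an adjusted p under 0.05 with spike-in scaling, all with a positive difference, and all 12 passed with TMM, the 6 decreases in LacZ with a positive difference and the 6 increases with a negative one. Of 20 other tested genes at the named peaks, none passed with spike-in scaling, and 5 were positive and 3 negative with TMM. For Eda2r this difference was 2.43 on the log2 scale (SE 0.50, edgeR adjusted p 0.0009; 2.13 by TMM). It had 15.8, 14.9 and 13.6 CPM in siHsf1 GCN5, against 15.4, 13.3 and 13.3 in siControl GCN5, beside the decrease in LacZ described above. For Mir6516 it was 2.77 (SE 0.67, edgeR adjusted p 0.014; 2.33 by TMM), with 5.52, 7.07 and 5.62 CPM in siHsf1 GCN5, against 6.74, 8.93 and 7.74 in siControl GCN5. For Nedd4 it was 1.68 (SE 0.45, edgeR adjusted p 0.043; 1.36 by TMM), with 1623, 1572 and 1568 CPM in siHsf1 GCN5, against 1528, 1457 and 1409 in siControl GCN5. By TMM alone, the difference was -1.70 for Tor3a (SE 0.17, edgeR adjusted p 6.9e-08), which had 20.2, 27 and 24.6 CPM in siHsf1 GCN5, against 26.2, 26.3 and 22.9 in siControl GCN5. It was -1.48 for Lgals3bp (SE 0.08, edgeR adjusted p 9.8e-12) by TMM, and with spike-in scaling the adjusted p was 0.26 for Tor3a and 0.42 for Lgals3bp. The GCN5 libraries were shallower and are of another line, and the part of depth was not tested.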

How the results depend on the processing

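A shorter or longer distance from starts (1841 and 1105 regions), or an overlap of 50% of the CKO peak (1430), left the medians and the share in genes within their intervals. Keeping CKO peaks at or above the median height left 505 regions, with 65.3% in genes, a height ratio of 0.623, a height of 0.00469 and a width of 1511 bp. Leaving out chromosomes 8, 11 and 15 (chosen after seeing the data) left 878 regions, with 59.1% in genes, a ratio of 0.471 and a width of 1608 bp. The ratio was 0.51 by mean signal and, by settings also chosen after seeing the data, 0.474 for regions that hold the WT maximum and 0.875 in steps. The share in genes was 65.9% with protein-coding starts alone and 57.8% with RefSeq promoter starts as well (also added later). Starts of every transcript were not run, for want of an annotation.

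For nearest genes in LacZ, spike-in scaling gave 3 higher and 27 lower, and the others in turn gave 187 and 86 (TMM), 162 and 81 (DESeq2), and 0 and 7 (the line's libraries alone). With the replicate block they were 15 and 121 with spike-in scaling and 193 and 91 with TMM. Libraries of the same replicate number were not correlated after TMM scaling (-0.06 to 0.07), which cannot show pairing in the spike-in amount. The subgroup B share of counts was 0.142%, 0.239% and 0.190% in siControl LacZ replicates 1, 2 and 3. It was 0.177%, 0.356% and 0.248% in siHsf1 LacZ replicates 1, 2 and 3, the same order. In the GCN5 line the order differed between the groups. Replicates 1, 2 and 3 had 0.197%, 0.296% and 0.238% in siControl GCN5, and 0.229%, 0.232% and 0.286% in siHsf1 GCN5. Host genes gave 12 lower. Leaving out a library gave 0 to 4 higher and 9 to 117 lower; the cause was not tested. In GCN5 the replicate block with TMM called 1 lower, and leaving out a library called 0.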
